A study of Mus musculus with 8 samples.

Results

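Basement membrane genes were examined in mouse morulae after siRNA knockdown of P150, a subunit of the chromatin assembly factor CAF-1 that the gene Chaf1a encodes. The set was given as 10 genes: the laminin chains Lama1, Lama5, Lamb1 and Lamc1, the collagen IV chains Col4a1 and Col4a2, and Nid1, Nid2, Hspg2 and Sparc. All 10 were found through the RefSeq accessions of the array, among 20656 named genes, and they were covered by 14 of the 55681 probes. The P150KD embryos came from in vitro fertilisation, were injected with P150 siRNA at the 1-cell stage, and were collected as morulae at embryonic day 3.0. The siControl embryos were produced and collected in the same way after injection of control siRNA. There were 5 P150KD arrays and 3 siControl arrays, each carrying amplified RNA of 10 pooled embryos. The knockdown is an injected siRNA and not a deletion, and the strain of the embryos was not given in the sources used here.

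A basement membrane is a thin sheet of matrix on which epithelia rest. Its first layer is laminin, a heterotrimer of an alpha, a beta and a gamma chain that polymerises on the cell surface. Collagen IV forms a covalent network beside it, nidogens and the proteoglycan perlecan connect the networks, and SPARC binds collagen. In the mouse embryo, laminin and collagen IV chains are made before implantation, and the primitive endoderm and the trophoblast later lay down the first basement membranes. The question of the comparison was which of these transcripts differ in the morula after that knockdown.

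Levels are given on the log2 scale after subtracting each array's 75th percentile, and differences are P150KD minus siControl on that scale. Depending on the array, 50.1% to 55.9% of spots exceeded background clearly (the scanner software's well-above-background flag), and no spot was saturated. Chaf1a was lower in P150KD (-0.62 ± 0.85, SD, n = 5) than in siControl (2.25 ± 0.16, SD, n = 3), with a limma adjusted p of 0.0107. The difference of -2.88 held its call with any 1 array left out, and lost it with the position on the slide as a block (-3.72, limma adjusted p = 0.0509) and with the replicate number as a block (-2.73, limma adjusted p = 0.163). The labels call the arrays replicates without saying whether they hold separate collections, so the p-values reflect only how far these samples spread, which may be technical. Per the file headers, all 8 arrays lay on 1 slide and had 1 scan date. P150KD replicate 1 and the 3 siControl arrays shared the first index of the position on the slide, 1. P150KD replicates 2 to 5 had index 2. With this slide index as a block, the group difference is therefore that of P150KD replicate 1 from the 3 controls. Calls kept or lost under it rest on that 1 knockdown array and are no adjusted comparison of all 8 arrays. The mean of 15 housekeeping genes lay between 5.04 and 5.35 on the P150KD arrays and between 5.64 and 5.67 on the siControl arrays, and over the 14598 tested genes the median log2 fold change was -0.24. Whether a list moved is therefore read beside that median.

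Of the 10 basement membrane genes, 3 fell in P150KD (Lamb1, Lama5 and Col4a1) and 0 rose (limma adjusted p under 0.05 over all tested probes). Over all tested genes 10.5% fell, 6.65% rose and 17.1% did either. That share holds dim genes too. With only probes well above background on all 8 arrays, the 10 genes all stayed and 3 fell. Among all genes of that fit, 2068 of 11282 fell and 930 rose. Of 15 housekeeping genes, 5 fell and 1 rose in the main fit. For the 10 basement membrane genes, the counts at an unadjusted limma p under 0.05 were 5 lower (the 3 that fell, Col4a2 and Nid2) and 1 higher (Lama1). The share of all tested genes past that unadjusted threshold was not counted, so such counts, here and in the lists below, only describe the genes. The mean was lower in P150KD for 8 of the 10 genes and higher for 2, where 61.3% of all tested genes had a lower mean. The median log2 fold change of the 10 genes was -0.80. Such a median was not particular to them. Among the lists counted below, adhesion linkers had -0.83 (8 of 8 lower) and morula markers -0.75 (10 of 10 lower). Further basement membrane components had 0.08 (5 higher and 4 lower). The 5 P150KD arrays lay below all 3 siControl arrays for the same 3 genes, which was the case for 21.8% of all tested genes. They lay above all controls for 0 members and for 10.2% of all tested genes. All 10 genes passed the filter on dim probes, with 13 of their 14 probes, and 11 probes were well above background on all 8 arrays. In whole embryos, fewer cells of a type and less RNA per cell cannot be told apart.

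**Figure D1:**
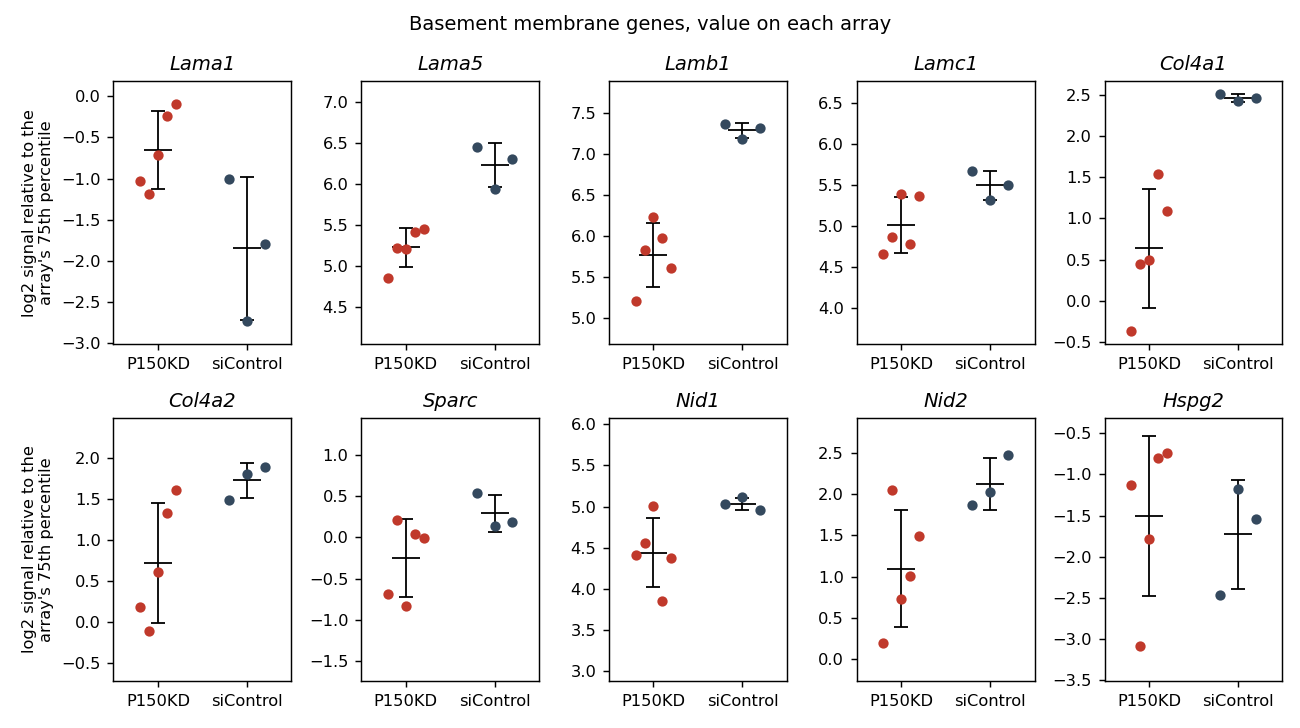
Log2 signal relative to the array's 75th percentile (vertical axis, each panel spanning the same number of units) for the brightest probe of each gene. Red points are the 5 P150KD arrays, dark points the 3 siControl arrays, and bars the mean ± SD. The groups do not overlap for Lama5, Lamb1 and Col4a1.

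Upstream sequences are shown for Lamb1 and Lama5, the laminin chain genes that fell. For the collagen IV pair the stretch that both annotated transcripts share at their 5′ ends is shown, because the genes start within it on opposite strands. RefSeq promoter windows (build GRCm38.p6) were matched for 7 of the 10 genes, Lama5, Hspg2, Col4a1, Col4a2, Sparc, Lamb1 and Nid1, and not for Lama1, Lamc1 and Nid2. For Lamb1 and Lama5 the 250 bases before the annotated start are printed 5′ to 3′ on the gene's strand. Capitals mark matches on either strand to the GC box GGGCGG, the CCAAT box CCAAT, the TATA box TATAAA or the GATA site AGATAA.
Lamb1, chr12:31265043-31265292, plus strand: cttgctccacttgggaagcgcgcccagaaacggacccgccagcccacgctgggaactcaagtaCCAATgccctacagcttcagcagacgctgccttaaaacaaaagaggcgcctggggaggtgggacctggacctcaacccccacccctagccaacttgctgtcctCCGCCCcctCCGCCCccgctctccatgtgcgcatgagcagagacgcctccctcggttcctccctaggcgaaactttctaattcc
Lama5, chr2:180225860-180226109, minus strand: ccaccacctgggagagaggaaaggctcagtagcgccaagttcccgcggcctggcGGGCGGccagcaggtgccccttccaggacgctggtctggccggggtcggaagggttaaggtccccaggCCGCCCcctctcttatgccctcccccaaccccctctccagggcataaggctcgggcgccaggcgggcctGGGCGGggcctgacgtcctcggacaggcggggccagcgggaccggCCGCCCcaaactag
Col4a2 start to Col4a1 start, within both transcripts, chr8:11312805-11312826, plus strand: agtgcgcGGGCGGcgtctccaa

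The Lamb1 window held 2 GC boxes and 1 CCAAT box, and the Lama5 window held 4 GC boxes. A GC box was present in 32.7% of all 32851 promoter windows cut to the same length, a CCAAT box in 33.9%, a TATA box in 12.4% and the GATA site in 9.99%. The windows of Col4a1 and Col4a2 each held 1 CCAAT box. The Col4a2 window held 2 GC boxes besides, and that of Col4a1 held 0. Of the matched genes none had a TATA box or the GATA site within the 250 bases, which says only that these letters are absent there. Col4a1 and Col4a2 lie on opposite strands, and their annotated starts lay 21 bases apart, so that the first 22 bases of each gene lie inside both transcripts. That shared stretch held 1 GC box, and the upstream window of each gene lies on the side toward which the other is transcribed.

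Of the 4 laminin chain genes among the members, Lamb1 and Lama5 fell. Lamb1 encodes laminin beta 1, which pairs with gamma 1 in most laminins of the early embryo. It read 5.21, 5.83, 6.23, 5.97 and 5.61 on P150KD replicates 1 to 5, against 7.35, 7.18 and 7.32 on siControl replicates 1 to 3. The highest knockdown array stayed below the lowest control array. The fitted log2 fold change was -1.52 (SE 0.25, limma adjusted p = 0.0104), a 2.86-fold lower signal. The call held when any 1 of the 8 arrays was left out, with limma adjusted p between 0.0133 and 0.0455. P150KD replicate 1, the 1 knockdown array with the slide index of the controls, lay 2.07 below the control mean (a difference of -2.07).

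Lama5 encodes laminin alpha 5, the alpha chain of laminin-511. It read 4.86, 5.22, 5.20, 5.41 and 5.45 on P150KD replicates 1 to 5, against 6.44, 5.93 and 6.31 on siControl replicates 1 to 3. The groups did not overlap, and the difference was -0.998 (SE 0.21, limma adjusted p = 0.0223), a 1.997-fold lower signal. The limma call was lost without siControl replicate 1 (adjusted p = 0.0890) or siControl replicate 3 (adjusted p = 0.0708), with quantile normalization (-0.75, adjusted p = 0.0697) and when scaled to the housekeeping genes (-0.53, adjusted p = 0.197). The difference of P150KD replicate 1 from the control mean was -1.37. With the slide index as a block, which rests on that array, the difference was the same and the call was lost.

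Lama1 encodes laminin alpha 1, the alpha chain of laminin-111, and its signal was not lower in P150KD. It read -1.03, -1.18, -0.71, -0.24 and -0.09 on P150KD replicates 1 to 5, against -1.001, -2.74 and -1.80 on siControl replicates 1 to 3. The knockdown arrays 3 to 5 lay above every control array, while siControl replicate 1 lay among the knockdown values. A log2 fold change of 1.19 (SE 0.44) did not pass (limma adjusted p = 0.111), and its 95% interval ran from 0.18 to 2.21. Lamc1 encodes laminin gamma 1, common to laminin-111 and laminin-511. It read 4.66, 4.87, 5.39, 4.78 and 5.36 in P150KD, against 5.67, 5.31 and 5.51 in siControl. Here 3 of the 5 knockdown arrays lay below the lowest control array. Its difference of -0.48 (SE 0.24, 95% interval -1.03 to 0.07) did not pass (limma adjusted p = 0.215), and it was -0.02 when scaled to the housekeeping genes.

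The collagen IV chains were both lower in mean, and 1 of them passed. Col4a1 encodes the alpha 1 chain, of which the embryonic collagen IV protomer holds more than of alpha 2. It read -0.37, 0.45, 0.49, 1.54 and 1.09 on P150KD replicates 1 to 5, against 2.51, 2.42 and 2.46 on siControl replicates 1 to 3. The control arrays lay within a narrow range, and the knockdown arrays were spread over a wider one below it. The log2 fold change was -1.83 (SE 0.41, limma adjusted p = 0.0271), a 3.55-fold lower signal. The Col4a1 probe was printed in 10 spots on each array, and the SD over those spots was between 0.038 and 0.071, so spot error was small beside the spread of the knockdown arrays. The limma call of Col4a1 was lost without P150KD replicate 2 (adjusted p = 0.0513), P150KD replicate 3 (0.0566) or siControl replicate 1, 2 or 3 (0.0892, 0.0771 and 0.0797). Scaled to the housekeeping genes, its difference was -1.36 (limma adjusted p = 0.0929). With the slide index as a block it was -2.84, which is the difference of P150KD replicate 1 from the control mean.

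Col4a2 encodes the alpha 2 chain. It read 0.18, -0.11, 0.61, 1.33 and 1.603 in P150KD, against 1.48, 1.81 and 1.89 in siControl. P150KD replicates 1 to 4 lay below all controls and replicate 5 lay above siControl replicate 1. Its difference of -1.002 (SE 0.42, 95% interval -1.98 to -0.02) did not pass (limma adjusted p = 0.156). Of the 4 other collagen IV chain genes, Col4a6 fell with a log2 fold change of -0.88 (SE 0.21, limma adjusted p = 0.0345), Col4a4 did not pass (-0.21), and Col4a3 and Col4a5 were too dim to be tested. The Col4a6 call held without siControl replicate 2 and was lost when any other array was left out.

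The connecting and collagen-binding members did not pass. Nid1 and Nid2 encode nidogens, which bind laminin gamma 1 and collagen IV. The brightest Nid1 probe read 4.42, 4.56, 5.01, 3.85 and 4.37 in P150KD, against 5.03, 5.11 and 4.96 in siControl. Only P150KD replicate 3 reached the range of the controls. Its log2 fold change was -0.59 (SE 0.26, 95% interval -1.20 to 0.02, limma adjusted p = 0.174). The other Nid1 probes were dimmer, with log2 fold changes of 0.26 (SE 1.40) and -0.73 (SE 0.40), and the probes of Nid1 thus disagreed in sign.

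Nid2 read 0.19, 2.05, 0.73, 1.01 and 1.49 in P150KD, against 1.87, 2.03 and 2.47 in siControl. P150KD replicate 2 lay among the controls and the other 4 knockdown arrays below them. Its difference of -1.03 (SE 0.42, 95% interval -2.01 to -0.05) did not pass (limma adjusted p = 0.146). Sparc encodes a calcium- and collagen-binding matricellular protein. Its brighter probe read -0.69, 0.21, -0.83, 0.05 and -0.0015 in P150KD, against 0.55, 0.14 and 0.19 in siControl. P150KD replicate 2 overlapped the controls. The log2 fold change was -0.55 (SE 0.30, 95% interval -1.24 to 0.15, limma adjusted p = 0.260), and the dimmer probe differed by 0.02 (SE 0.61).

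Hspg2 encodes perlecan, a large heparan sulfate proteoglycan. It read -1.13, -3.09, -1.79, -0.80 and -0.74 in P150KD, against -2.47, -1.18 and -1.54 in siControl. The knockdown arrays extended past the control arrays at both ends. The log2 fold change of 0.22 (SE 0.59, 95% interval -1.16 to 1.60) did not pass (limma adjusted p = 0.829), and its sign turned when siControl replicate 1 was left out (-0.15). With so few arrays, these differences are known only to within their intervals.

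**Figure D2:**
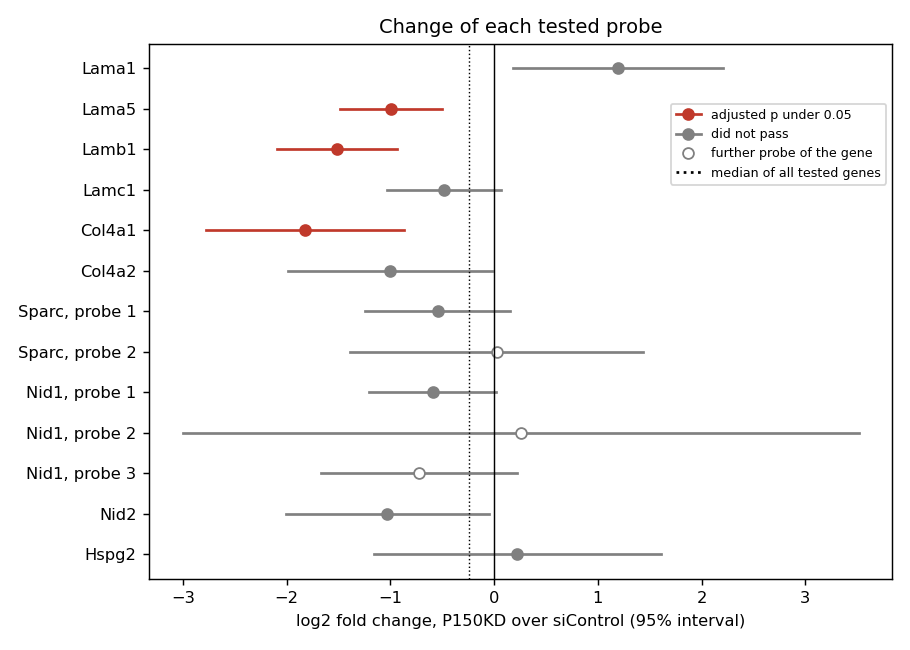
Log2 fold change of P150KD over siControl (horizontal axis) with its 95% interval for the 13 tested probes of the 10 genes, in the order of the text. Red marks the 3 probes that passed, grey those that did not, open points further probes of a gene, and the dotted line the median of all tested genes at -0.24.

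Related genes did not all change by the same amount. For 5 pairs of chains that assemble together or stand in for each other, the log2 difference between the genes was taken within each array. A constant scaling of the array cancels in it, and a shift that depends on signal level does not. This difference was compared between the groups by a two-sided exact permutation test over all 56 splits into 5 and 3. The pairs were not tested under quantile normalization. The level of such a difference depends on the probes and carries no meaning, while its change between groups shows unequal change. Lama1 minus Lamb1 was -6.42 ± 0.55 (SD, n = 5) in P150KD and -9.13 ± 0.78 (SD, n = 3) in siControl, a change of 2.71. Lama1 minus Lama5 was -5.88 ± 0.33 in P150KD and -8.07 ± 0.61 in siControl, a change of 2.19. Lama1 signal was thus higher in P150KD relative to both genes, and on all 5 knockdown arrays these differences lay above all 3 controls. Of single tested genes, 21.8% had all P150KD arrays below all controls and 10.2% had them above. Lamb1, Lama5 and Col4a1 already separated in this way on their own. The share of gene pairs that separate was not computed.

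Lamb1 minus Lamc1 was 0.75 ± 0.37 in P150KD and 1.79 ± 0.09 in siControl, a change of -1.03. Each of the 3 laminin pairs had an exact p of 0.0179, the smallest that 56 splits can give, and 0.0298 after Benjamini-Hochberg adjustment over the 5 pairs. Col4a1 minus Col4a2 was -0.08 ± 0.48 in P150KD and 0.74 ± 0.25 in siControl, a change of -0.82 (exact p = 0.0357, adjusted p = 0.0446). All 5 knockdown arrays lay below the controls here too, the nearest at 0.557 against 0.575, but the exact p rose to 0.0571 or 0.0952 when any 1 of the 8 arrays was left out. Nid1 minus Nid2 was 3.35 ± 0.84 in P150KD and 2.91 ± 0.37 in siControl, and the groups overlapped (exact p = 0.411). With any control left out, 21 splits remain and the smallest exact p is 0.0476, so no pair passed the adjustment over the 5 pairs. No pair passed that adjustment without P150KD replicate 2 or 3 either, while the 3 laminin pairs did without P150KD replicate 1, 4 or 5.

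**Figure D3:**
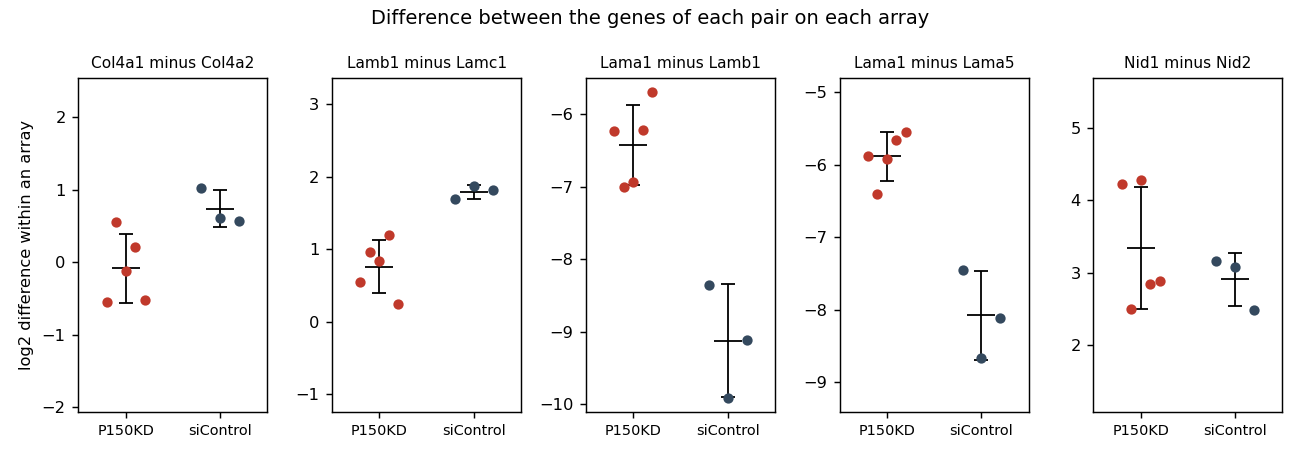
Difference in log2 signal between the genes of a pair within each array (vertical axis, each panel spanning the same number of units), with red points for the 5 P150KD arrays, dark points for the 3 siControl arrays and bars for the mean ± SD. The groups do not overlap in the collagen IV pair and the 3 laminin pairs and overlap for the nidogens.

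The direction of the 3 fallen genes was kept under all 11 other processing settings and all 8 omissions. The log2 fold change ran from -2.07 to -1.05 for Lamb1, from -1.37 to -0.53 for Lama5 and from -2.84 to -1.36 for Col4a1. Lama1 ran from 0.75 to 1.66 and passed under none of these settings, with limma adjusted p from 0.0601 to 0.632. Scaled to the housekeeping genes, Lamb1 was the only member to pass (-1.05), and the median of all tested genes was then 0.23. The distance from the median of all genes is not affected by that scaling, and it was -1.28 for Lamb1, -0.76 for Lama5 and -1.59 for Col4a1.

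**Figure D4:**
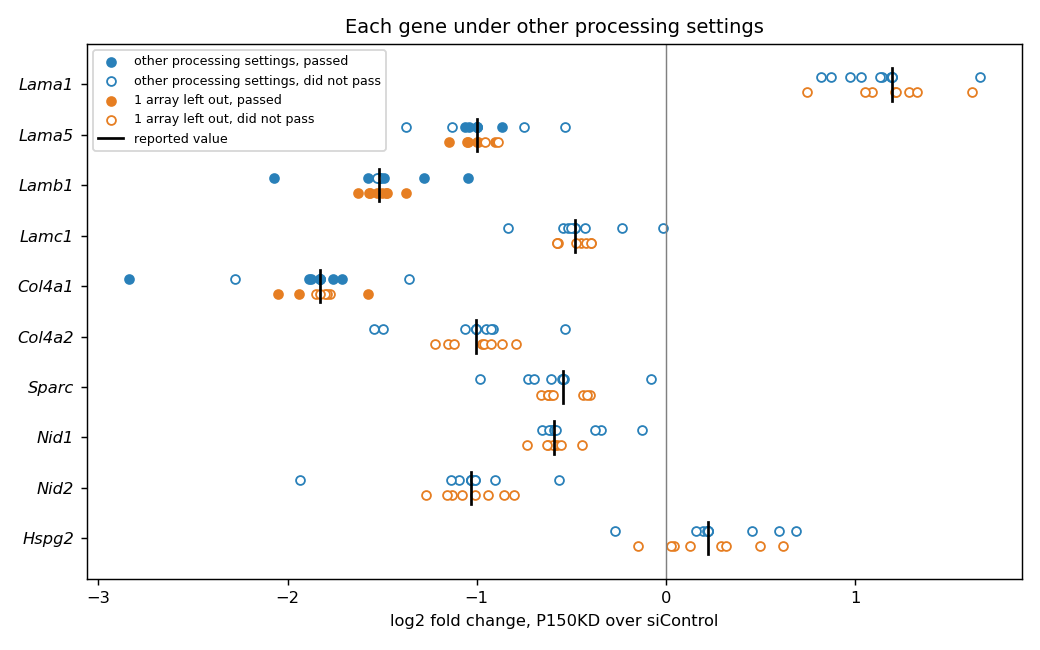
Log2 fold change of P150KD over siControl (horizontal axis) of each gene's brightest probe under other processing settings (blue) and with 1 array left out (orange). Filled points passed at an adjusted p under 0.05, open points did not, and the black line is the reported value. Lamb1, Lama5 and Col4a1 stay below 0 at every point, and Hspg2 lies on both sides of it.

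Genes most like the members over the 8 arrays were sought among 14588 other tested genes. The mean of Col4a1 and Col4a2 was followed most closely by Aamp (Pearson's r = 0.990), Cacnb3 (0.984), Tcf15 (0.982), Cdon (0.980) and Garem1 (0.976). The mean of Lama1, Lamb1 and Lamc1, whose log2 fold changes differed in sign, was followed by Six3 (r = 0.921), Piezo1 (0.919), Coro7 (0.911), Alox12e (0.909) and Ptger1 (0.908). These values describe 8 arrays in 2 groups, which share the group difference and the array scaling. They are the highest of 14588 correlations, and how high such values run by chance was not tested. Six3, Alox12e, Cdon and Garem1 were dim, with P150KD means of -5.71, -4.17, -5.11 and -5.425.

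Other genes of matrix production and sensing were counted in the same fit, from lists chosen by function. Of 6 tested other laminin chains, 0 passed in limma, and 1 reached an unadjusted p under 0.05 (Lamb3, log2 fold change 1.99, limma adjusted p = 0.153). Lamb3 was well above background on 4 P150KD arrays and 0 siControl arrays. It thus entered the test only through the group where it read higher, and no rise of a laminin chain is read from it. Of 9 tested further basement membrane components, 1 rose and 1 fell. Frem2, which encodes a protein of the Fraser complex at epithelial basement membranes, rose to 1.73 ± 0.32 (SD, n = 5) in P150KD, against -0.46 ± 0.52 (SD, n = 3) in siControl (log2 fold change 2.19, SE 0.30, limma adjusted p = 0.00562). Tinagl1, which encodes a matricellular protein, fell to -4.17 ± 0.51 in P150KD, against -2.53 ± 0.14 in siControl (-1.64, SE 0.31, limma adjusted p = 0.0159). A further Tinagl1 probe had a log2 fold change of -1.10 and an adjusted p of 0.501. The proteoglycan gene Agrn did not pass (0.24).

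Of 21 tested genes for assembly and secretion of collagen and laminin, 1 rose and 3 fell, with a list median of -0.32. Fkbp10, which encodes a prolyl isomerase of the endoplasmic reticulum that acts on procollagen, rose to 2.45 ± 0.26 in P150KD, against -0.75 ± 0.53 in siControl (log2 fold change 3.20, SE 0.28, limma adjusted p = 0.00172). Sec23a and Sec24d encode coat proteins of the vesicles that carry cargo, large procollagen included, out of the endoplasmic reticulum. Sec23a fell to 1.91 ± 0.17 in P150KD, against 3.14 ± 0.24 in siControl (-1.22, SE 0.19, limma adjusted p = 0.00822). Sec24d fell by 1.47 on the log2 scale (SE 0.37, limma adjusted p = 0.0402), and P4hb, a subunit of prolyl 4-hydroxylase, by 0.63 (SE 0.16, limma adjusted p = 0.0375). Serpinh1, the collagen chaperone HSP47, stood at 0.94 ± 0.86 in P150KD and 0.66 ± 0.75 in siControl and did not pass (0.28).

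Of 14 tested matrix receptors, 2 fell and 0 rose, and at an unadjusted limma p under 0.05 there were 4 lower and 1 higher. Itgb1, the integrin beta 1 chain shared by most laminin and collagen receptors, fell to 3.40 ± 0.20 in P150KD, against 4.29 ± 0.22 in siControl (log2 fold change -0.90, SE 0.19, limma adjusted p = 0.0240). A further Itgb1 probe differed by -1.03 (limma adjusted p = 0.0775). The syndecan gene Sdc4 fell by 1.18 (SE 0.31, limma adjusted p = 0.0449), and Dag1, which encodes the laminin receptor dystroglycan, had -1.05 and did not pass (limma adjusted p = 0.0784). Of 8 tested adhesion linker genes 1 fell, Lims1 (-1.24, SE 0.20, limma adjusted p = 0.00994), which encodes PINCH1, a partner of integrin-linked kinase. A dimmer Lims1 probe did not pass (-2.45, limma adjusted p = 0.209). Of 8 tested proteases and inhibitors 1 fell, the cathepsin gene Ctsb (-1.30, SE 0.16, limma adjusted p = 0.00462). Of 5 tested cross-linking enzymes, 0 passed and 0 reached an unadjusted limma p under 0.05.

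Of 8 tested regulators of the primitive endoderm, the lineage that secretes much of the early basement membrane, 1 rose and 0 fell. At an unadjusted limma p under 0.05, 3 were higher (Gata4, Sox17 and Foxq1) and 0 were lower. These 3 were the only ones with a higher mean in P150KD, and the other 5 had a lower mean. The list median was -0.049, where that of all tested genes was -0.24. The summed signal of the list, in the units given below for the morula markers, was 257.8 to 301.4 in P150KD and 296 to 339.2 in siControl. That sum, in which the brightest genes weigh most, was thus not higher in P150KD. The direction of the single genes depended on the scaling. Scaled to the housekeeping genes, 8 of 8 had a higher mean, with a list median of 0.42 beside 0.23 for all tested genes. With quantile normalization 5 of 8 were higher, with a list median of 0.16 beside -0.12. Gata4, a GATA factor of that lineage, was higher in P150KD (0.27 ± 0.40) than in siControl (-1.98 ± 0.94), with a limma adjusted p of 0.0172. Gata6 (-0.25) and Sox17 (2.44) did not pass (limma adjusted p = 0.474 and 0.127), nor did Foxq1 (2.19, limma adjusted p = 0.0535), whose groups did not overlap. The calls of Frem2, Fkbp10, Sec23a, Lims1 and Ctsb held when any 1 array was left out. P4hb lost its call with every such omission, Sec24d with all except that of P150KD replicate 4, and Sdc4 with all except that of P150KD replicate 3. Itgb1 lost it without P150KD replicate 4 or any 1 of the 3 controls, Tinagl1 without any 1 of the 3 controls, and Gata4 without siControl replicate 1 or 3. Scaled to the housekeeping genes, Frem2, Fkbp10, Ctsb and Gata4 still passed, and Col4a6, Tinagl1, P4hb, Sec23a, Sec24d, Itgb1, Sdc4 and Lims1 did not. With the slide index as a block, Fkbp10 kept its call, and Frem2, Sec23a, Lims1, Ctsb, Gata4, Tinagl1, Itgb1, Sdc4, Sec24d, P4hb and Col4a6 lost it.

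**Figure D5:**
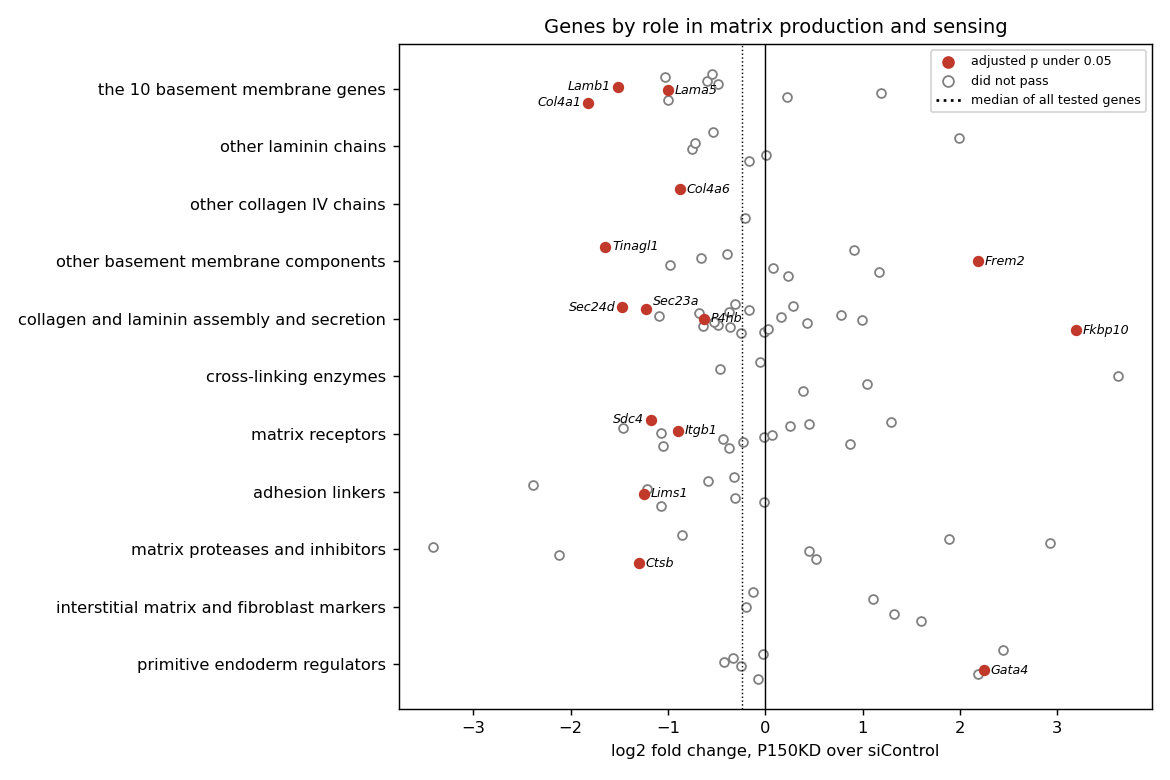
Log2 fold change of P150KD over siControl (horizontal axis) of every tested gene, 1 point per gene, in each list by role (rows). Red named points passed at an adjusted p under 0.05, open points did not, and the dotted line is the median of all tested genes at -0.24. Fkbp10, Frem2 and Gata4 lie to the right among the genes that passed, and the other 12 to the left.

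Markers checked the embryos and other cells they could hold. All 10 morula markers were well above background on all 8 arrays. Their summed signal, in units of the array's 75th percentile, was 368 to 443 in P150KD and 612 to 656 in siControl, and Tead4, Gata3 and Krt18 fell. Krt18 kept its call when any 1 array was left out, Tead4 lost it without any 1 of the 3 controls, and Gata3 kept it only without P150KD replicate 1 or 2. With the slide index as a block, Krt18 and Gata3 kept theirs and Tead4 lost it. Of 10 fibroblast and interstitial matrix markers 5 were tested and 0 passed in limma, with 1 at an unadjusted p under 0.05, Col1a1 (1.60). Their summed signal was 21.4 to 32.9 in P150KD and 18.96 to 33.2 in siControl. Fibronectin (Fn1) had a log2 fold change of -0.20. Of 11 cumulus and granulosa cell markers, 6 were not well above background on any array, and their sum was 1.62 to 2.69 in P150KD and 1.99 to 3.30 in siControl. The leukocyte markers summed to 4.04 to 9.37 in P150KD and 1.59 to 1.88 in siControl. Of 5 tested, 2 rose, Coro1a and Cd74. The Coro1a call was lost without siControl replicate 2 or 3, and both calls were lost with the slide index as a block. The other 3 tested were lower in mean, 1 of them at an unadjusted limma p under 0.05, and the list median was -0.29. Of all 10, 5 were not well above background on any array, Ptprc among them. The part of these markers and of the housekeeping level in the values of the basement membrane genes was not tested.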

How the data were processed

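RNA of mouse morulae was measured on 8 single-colour Agilent arrays. Per the labels, total RNA of 10 embryos went through 2 rounds of linear amplification before Cy3 labelling of an equal mass, so levels are relative. Per the file headers, the processed signal is an intensity made by the authors with Feature Extraction 10.5.1.1, background-subtracted and spatially detrended, not normalized between arrays, and the authors' files also carry quality flags (0 or 1). The series table deposited with them is on a log2 scale; set against the scanner signals, its values are scaled by the upper quartile of the array, with the median of every probe set to 0, with column medians from -0.21 to 0.09.

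Control spots were left out, spots of a probe were averaged on the log2 scale without non-uniform or outlying spots where another remained, and the 75th percentile over the probes of the array was subtracted. Testing required a well-above-background flag on at least 3 of 8 arrays, which left 30348 probes. Probes were named through their RefSeq accessions (27229 probes with 1 symbol). P150KD was compared with siControl by limma 3.58.1 (R 4.3.3), using lmFit and eBayes with group as the only term and two-sided p-values. Benjamini-Hochberg adjustment covered the whole of the tested table, with 0.05 as threshold; the procedure was tested on simulated data. A gene was represented by its brightest tested probe on average. The 95% intervals are those of the limma fit, unadjusted.

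The members and lists were chosen with earlier results of these data known. The genes named are the members, Chaf1a, up to 4 genes of each list that passed with the smallest p, Itgb1, Dag1, Serpinh1, Gata4, Gata6, Sox17 and Fn1, and the 5 genes most correlated with the laminin-111 and collagen IV means; Agrn, Lamb3, Col4a4, Col1a1, Foxq1 and Ptprc were named after their values were seen. Promoter windows come from RefSeq. Pair tests ran in scipy 1.17.1 under Python 3.11.15. Other settings tried were normexp on the median spot signal (offset 50), quantile normalization, scaling to the array median or to housekeeping genes, the series table, no filter, a stricter filter (all 8 arrays above background), array weights, a block for replicate number or slide index, a trended and robust eBayes, the mean of a gene's probes, and leaving out each array. The planned slide block was not run, since there is 1 slide and 1 scan date. Replicate numbers were not taken as pairs in the main fit, since correlations of same-numbered deviations were -0.07 to -0.01. These values cannot tell whether same-numbered arrays were collected or processed together.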

Additional observations from a re-analysis of the deposited data

Results flagged for a closer look

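A single array stood far from the other 4 knockdown arrays for 2 of the 13 tested probes, both of them dim probes of Nid1; chance gives such a gap in about 1 of 20 groups. Probe A_55_P2084303 read -6.85 on P150KD replicate 2, against -2.95 to -1.69 on the other P150KD arrays; siControl replicate 3 was also low, at -5.81. Neither of these 2 arrays was well above background for it. Probe A_55_P2115713 read -5.74 on P150KD replicate 4, where it was not well above background, against -4.50 to -4.06 on the other P150KD arrays. The second Hspg2 probe, A_55_P1959648, was too dim to be tested. It was well above background on P150KD replicate 5 alone, at -4.35, against -7.40 to -7.14 on the siControl arrays.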

How the results depend on the processing

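The members past the threshold numbered 3, all of them fallen; 0 rose in limma under any alternative. The count was 1 when scaled to the housekeeping genes, 2 with quantile normalization or the slide index as a block, and 1 to 3 with 1 array left out. With the replicate number as a block, which leaves few residual degrees of freedom, 0 members and 0 probes passed; Lamb1 was then at -1.53 (adjusted p = 0.165). In all, 4231 probes passed (1907 risen, 2324 fallen), and 713 (442 and 271) with the slide index as a block. Scaling to the housekeeping genes gave 3312 risen and 633 fallen, quantile normalization 2073 and 1485, and scaling to the array median 1511 fallen. With 1 array left out 1706 to 3749 probes passed, 1016 to 1770 risen and 690 to 1979 fallen. The pair changes then ran from -0.98 to -0.68 (Col4a1 and Col4a2), -1.14 to -0.91 (Lamb1 and Lamc1), 2.32 to 3.10 (Lama1 and Lamb1), 1.89 to 2.51 (Lama1 and Lama5) and 0.20 to 0.65 (Nid1 and Nid2); Lamb1 and Lamc1 had an exact p of 0.0571 without P150KD replicate 2 or 3. Signs of members turned only for probes whose reported difference was smaller than its SE. Hspg2 had -0.27 with the replicate block and -0.15 to 0.62 with 1 array left out. The dimmer Sparc probe had -0.040 with normexp, -0.039 with median scaling and -0.034 with quantile normalization. It had -0.10 with the slide index as a block, -0.33 with array weights and -0.51 to 0.62 with 1 array left out. Nid1 probe A_55_P2084303 had -0.45 with the replicate block, -0.23 with array weights and -0.96 to 1.19 with 1 array left out. The causes were not tested. The number of arrays and the dim signal of these probes limit what can be seen.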
